A study of Homo sapiens with 6 samples.

Results

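The genes described here are 48 genes of the extracellular matrix, its proteases and the mesenchymal programme, measured in SW620, an established human cell line from a lymph node metastasis of a colorectal adenocarcinoma. They were picked as a list of gene names, with earlier results of these data known but no threshold on a measured value, out of 39554 genes with a row in the count table. The gene name matched a row of the FPKM table for 45 of them, MMP11 and TWIST2 were matched by their Entrez gene ID to rows whose name carries a suffix, and MMP9 had a row in the count table only. By role they are 6 transcription factors of the epithelial-mesenchymal transition (EMT), 4 mesenchymal markers and adhesion molecules, 7 matrix metalloproteinases (MMPs), 3 of their inhibitors (TIMPs), 2 plasminogen system genes, 7 collagen chains, 3 lysyl oxidases, 6 laminin chains, 6 proteoglycans and 4 matrix glycoproteins.

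RNA-seq was made from cells harvested 72 h after an siRNA was delivered with a DharmaFECT reagent. There were 3 libraries of cells given a control siRNA (siNC), whose genotype label is WT, and 3 libraries of cells given an siRNA against SOWAHA (siSOWAHA), whose genotype label is a SOWAHA knockdown. All 6 carry the same treatment label, so the groups were taken from the titles. The labels give neither the siRNA sequences nor whether replicates are separate cultures, so the p-values cover only the variation among these libraries, possibly technical. Poly(A) RNA with an integrity number above 7.0 went into strand-specific libraries read as pairs of 150 nt. The libraries held 49937395 to 59474396 counts. SOWAHA, the targeted gene, fell from 35.2 ± 3.72 to 7.78 ± 1.08 CPM (counts scaled to library size with TMM factors; SD, n = 3 each), which left 22.1% of the control level (log2 fold change -2.18, SE 0.11, adjusted p = 3.68e-09, edgeR quasi-likelihood test).

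Cells of an epithelium rest on a basement membrane of laminins, type IV collagen and heparan sulfate proteoglycans such as perlecan and agrin. Membrane-bound and secreted MMPs cut this matrix, TIMPs hold them in check, and the urokinase system activates plasmin, which cuts matrix proteins and activates some MMPs. In the EMT, factors of the ZEB, SNAI and TWIST families repress the epithelial cadherin gene CDH1, and cells gain vimentin, N-cadherin and interstitial matrix. Carcinoma cells express many of these genes themselves, whereas fibroblasts make most of the interstitial collagens of a tumour.

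Of the 48 genes, 40 passed the filter on low counts and were tested, and 20 of the 40 passed the edgeR test, which is 50.0% beside 16.9% of all 17693 genes tested. In the siSOWAHA libraries 14 were lower, beside 7.77% of all genes that were lower, and 6 were higher, beside 9.12%. The 14 lower genes were the mesenchymal marker VIM, the adhesion molecule L1CAM, the proteases and regulators MMP14, MMP15, TIMP2 and PLAUR, the collagens COL4A2, COL6A1 and COL18A1, the lysyl oxidase LOXL1, the laminins LAMA3, LAMA5 and LAMB2, and perlecan (HSPG2). The 6 higher genes were S100A4, TIMP3, PLAU, LAMC1, LUM and SDC4. The changes were small: the tested genes ran from -0.89 to 0.44 on the log2 scale with a median of -0.18, beside a median of -0.01 for all genes tested. The called ones had a median size of 0.30, beside 0.25 for all 2988 called genes.

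Highly expressed genes are called more often at this depth. At a mean of 10 CPM or more, 17 of 27 matrix, protease and mesenchymal genes were called (63.0%), 12 lower and 5 higher, beside 26.1% of 10086 genes, of which 11.5% were lower and 14.7% higher. The siNC and siSOWAHA libraries did not overlap for 25 of the 40 tested genes, beside 33.0% of all genes tested. In the authors' FPKM values, which are scaled to transcript length and library size, 19 of 34 tested genes were called, 5 higher and 14 lower, beside 20.7% of 12027 genes. All 19 were called with the same direction in the counts, and LAMC1 was called in the counts alone.

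**Figure D1:**
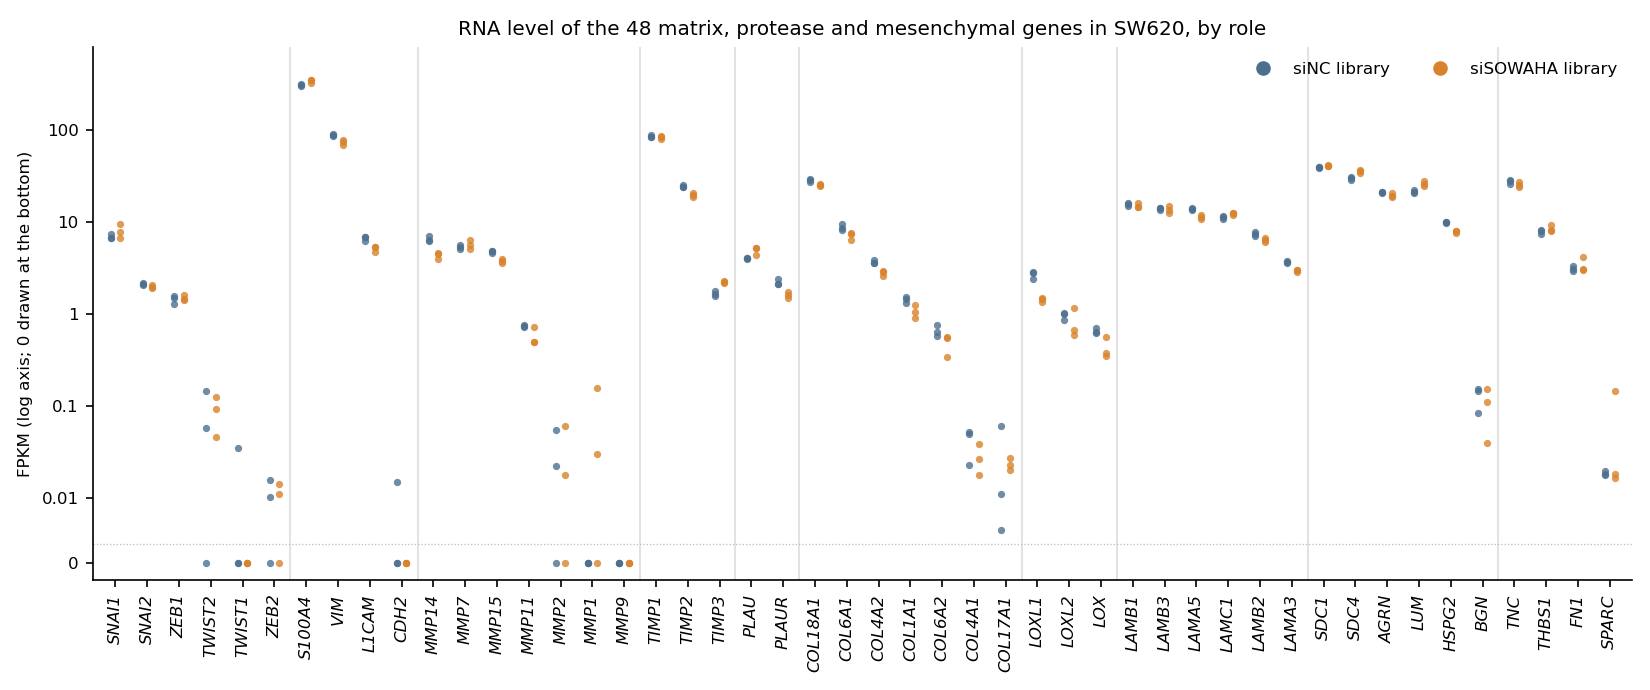
RNA level of the 48 genes in each library, in FPKM on a log axis with values of 0 drawn at the bottom, grouped by role; each point is 1 library. S100A4 stands at the top with a mean of 308 FPKM in siNC, whereas TWIST1, CDH2, MMP1, MMP2 and MMP9 have libraries at 0.

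The levels in siNC spanned several orders of magnitude. On the per-length FPKM scale 14 genes stood at 10 or above, 19 between 1 and 10, and 15 under 1, MMP9 included. S100A4 led with 308 FPKM, followed by VIM with 88.4, TIMP1 with 85.5, SDC1 with 39.6 and SDC4 with 29.8 FPKM. COL18A1 (28.6) and TNC (27.5) came next, then TIMP2 (24.5), AGRN (21.3), LUM (21.3), LAMB1 (15.6), LAMB3 (14.0), LAMA5 (13.8) and LAMC1 (11.3 FPKM). At the other end, 8 genes were too low to be tested: ZEB2, TWIST1, CDH2, MMP1, MMP2, MMP9, COL17A1 and SPARC. MMP9, gelatinase B, had no count in any library, and 0 of 329792596 counts allows a level of up to 0.0091 CPM, for counting error only. CDH2, N-cadherin, had 4 counts in siNC replicate 1 and none in the other libraries, and TWIST1 had 4 counts in siNC replicate 3 and none elsewhere. The cells thus carried vimentin and S100A4 RNA with almost no N-cadherin, and E-cadherin (CDH1) stood at 20.4 FPKM in siNC.

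Among the EMT transcription factors none of the 4 tested was called. These factors bind E-box sequences in the promoters of epithelial genes. SNAI1, a zinc finger repressor, measured 12.4, 13.5 and 12.3 CPM in siNC and 17.8, 14.6 and 12.5 CPM in siSOWAHA, so the groups overlapped (log2 fold change 0.23, adjusted p = 0.207). ZEB1 measured 13.3, 11.3 and 13.9 CPM in siNC and 12.9, 14.5 and 12.8 CPM in siSOWAHA (0.07, adjusted p = 0.747). SNAI2 lay between 4.52 and 5.11 CPM in all libraries (-0.08, adjusted p = 0.784), and TWIST2 had 0 to 34 counts (0.41, SE 0.87, adjusted p = 0.825). ZEB2 had at most 12 counts in a library.

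All 3 tested mesenchymal markers and adhesion genes were called, in opposite directions. VIM encodes vimentin, the intermediate filament protein of mesenchymal cells. It measured 199.5, 205 and 210.4 CPM in siNC and 179.7, 163 and 173 CPM in siSOWAHA. Every siSOWAHA library lay below every siNC library, a decrease of 16.1% (log2 fold change -0.25, SE 0.04, adjusted p = 0.000383). L1CAM, a neural cell adhesion molecule that carcinoma cells can express at the invasive front, measured 34.6, 38.7 and 38.3 CPM in siNC and 30.4, 27.0 and 30.1 CPM in siSOWAHA, again without overlap (-0.35, SE 0.07, adjusted p = 0.00217). S100A4, a calcium-binding protein tied to motility and metastasis, went the other way. Its levels were 192, 187 and 179.8 CPM in siNC and 197, 215.5 and 213 CPM in siSOWAHA (0.16, SE 0.04, adjusted p = 0.00977). The groups did not overlap, but S100A4 was not called without siNC replicate 3 (adjusted p = 0.0628) or without siSOWAHA replicate 3 (0.0593).

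**Figure D2:**
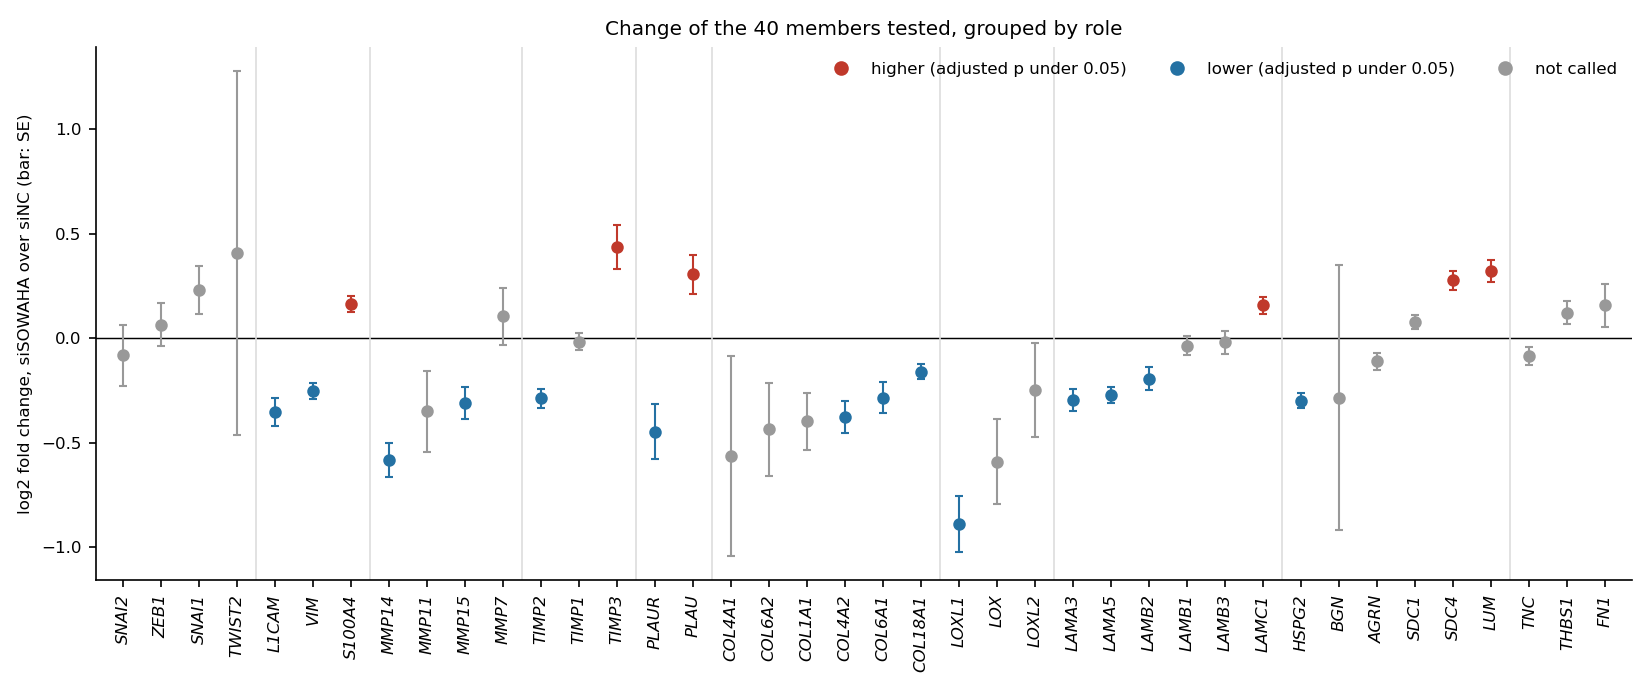
Log2 fold change of the 40 tested genes, siSOWAHA over siNC, grouped by role and ordered within a role; bars are the SE of the edgeR fit, red and blue mark genes that passed the test. LOXL1 lies lowest at -0.89, all 6 tested collagens lie below 0, and TWIST2, BGN and COL4A1 have the widest bars.

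Of the 4 tested MMPs both membrane-type enzymes were lower, and none was higher. MMP14 (MT1-MMP; Entrez gene 4323, chr14:22836585-22847758, plus strand) cuts collagen at the cell surface and activates the MMP2 proenzyme. It measured 25.5, 24.9 and 28.3 CPM in siNC and 18.3, 16.2 and 18.0 CPM in siSOWAHA. The groups stood well apart, with a decrease of 33.2% (log2 fold change -0.58, SE 0.08, adjusted p = 0.000126). MMP15, a second membrane-type enzyme, measured 21.3, 20.3 and 21.0 CPM in siNC and 17.5, 16.2 and 16.9 CPM in siSOWAHA, with no overlap (-0.31, SE 0.08, adjusted p = 0.0109). MMP7, matrilysin, an MMP that epithelial tumour cells themselves make, stood at 5.37 FPKM in siNC and was not called (log2 fold change 0.11, adjusted p = 0.682). MMP11, known from tumour stroma, was at 0.747 FPKM and was not called either (-0.35, adjusted p = 0.265). Its siSOWAHA libraries 1 and 3 read 2.46 and 2.51 CPM and library 2 read 3.63 CPM, within the siNC range of 3.53 to 3.76 CPM. MMP2, the gelatinase that MMP14 activates, had at most 15 counts in a library. MMP1, interstitial collagenase, had no count in siNC and 0, 19 and 4 counts in siSOWAHA replicates 1, 2 and 3.

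The 3 TIMPs diverged. TIMP2, which inhibits MMPs and also bridges MMP14 to the MMP2 proenzyme, measured 94.2, 99.4 and 95.1 CPM in siNC and 82.5, 75.8 and 78.4 CPM in siSOWAHA (log2 fold change -0.29, SE 0.05, adjusted p = 0.000429). TIMP3, the inhibitor that stays bound to the matrix and also restrains ADAM17, measured 7.81, 8.85 and 8.21 CPM in siNC and 11.5, 11.4 and 10.9 CPM in siSOWAHA. It was the gene with the largest increase among the 20 called, 35.3% (0.44, SE 0.11, adjusted p = 0.00964). TIMP1, the most abundant of the 3, measured 165, 176 and 166 CPM in siNC and 167, 175 and 159.9 CPM in siSOWAHA. Its groups overlapped (-0.02, adjusted p = 0.845). Ratios within a library, chosen after the values were seen and given with no test, describe the balance on the FPKM scale. TIMP2 to MMP14 was 3.41 to 4.04 in the siNC libraries and 4.41 to 4.74 in the siSOWAHA libraries. TIMP1 to TIMP3 was 49.8 to 52.8 in siNC and 36.4 to 38.4 in siSOWAHA.

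The protease and the receptor of the urokinase system moved in opposite directions. PLAU, urokinase, cuts plasminogen to plasmin, and PLAUR, its anchored receptor, holds it at the cell surface. PLAU measured 11.99, 12.2 and 12.2 CPM in siNC and 15.6, 13.4 and 16.0 CPM in siSOWAHA (log2 fold change 0.31, SE 0.09, adjusted p = 0.0352). PLAUR measured 8.31, 7.29 and 7.29 CPM in siNC and 5.98, 5.26 and 5.55 CPM in siSOWAHA (-0.45, SE 0.13, adjusted p = 0.0291). Neither gene's groups overlapped, but both calls were close to the threshold. PLAU was not called without siNC replicate 1, 2 or 3 (adjusted p = 0.101, 0.0878 and 0.0949) or without siSOWAHA replicate 1 or 3 (0.105 and 0.147). PLAUR was not called without siNC replicate 1, 2 or 3 (0.123, 0.0537 and 0.0577) or without siSOWAHA replicate 2 or 3 (0.0952 and 0.081). The FPKM ratio of PLAU to PLAUR was 1.82 ± 0.15 in siNC and 3.06 ± 0.21 in siSOWAHA (SD, n = 3 each), again a ratio chosen after the values were seen. In the GENCODE annotation 31.1% of the exon bases of PLAU are shared with C10orf55 on the opposite strand, which had 67 counts in all against 4447 for PLAU.

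All 6 tested collagen chains had a negative fold change, and 3 passed the test. COL4A2, a chain of the network collagen of basement membranes, measured 25.0, 24.9 and 26.6 CPM in siNC and 18.0, 20.6 and 20.3 CPM in siSOWAHA (log2 fold change -0.37, SE 0.08, adjusted p = 0.00333). COL18A1, whose C-terminal fragment is endostatin, was the most abundant collagen at 28.6 FPKM and measured 199.8, 212 and 213 CPM in siNC and 189.8, 183 and 186 CPM in siSOWAHA (-0.16, SE 0.04, adjusted p = 0.00582). COL6A1, a chain of the beaded microfibrils, measured 37.1, 39.4 and 42.9 CPM in siNC and 34.8, 29.1 and 34.2 CPM in siSOWAHA (-0.28, SE 0.08, adjusted p = 0.0166). In all 3 the siSOWAHA libraries lay below the siNC libraries. COL6A1 was not called without siNC replicate 3 (adjusted p = 0.1) or siSOWAHA replicate 2 (0.0817). COL18A1 shares 16.4% of its exon bases with SLC19A1 on the opposite strand, and the strand setting of the counting is not given in the sources used here, so part of its count is uncertain.

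The remaining collagens were low. COL1A1, the main chain of fibrillar type I collagen, measured 9.36, 8.40 and 9.77 CPM in siNC and 5.88, 8.21 and 6.80 CPM in siSOWAHA, without overlap but short of the threshold (log2 fold change -0.40, SE 0.14, adjusted p = 0.0594). It was called with library totals alone (adjusted p = 0.0487), with the filter of 1 CPM in 3 libraries (0.0371), with DESeq2 (0.0403) and without siSOWAHA replicate 2 (0.0276). COL6A2 stood at 0.660 FPKM (-0.44, adjusted p = 0.218) and COL4A1 at 0.042 FPKM (-0.56, SE 0.48, adjusted p = 0.5). COL17A1, the hemidesmosomal collagen of basal epithelial cells, had 2 to 20 counts.

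Type IV collagen is built from COL4A1 and COL4A2 chains together, but their RNA differed widely in these cells. COL4A2 stood at 3.68 ± 0.15 FPKM and COL4A1 at 0.0420 ± 0.016 FPKM in siNC (SD, n = 3 each), and the ratio of COL4A2 to COL4A1 ran from 68.2 to 167 in the siNC libraries and from 74.8 to 164.5 in the siSOWAHA libraries. COL4A1 rested on 17 to 51 counts a library. The genes lie head to head on chromosome 13 of GRCh38, COL4A1 at chr13:110148963-110307157 on the minus strand and COL4A2 at chr13:110307284-110513209 on the plus strand, with 126 bases between their starts. Their RefSeq promoter windows of 300 bases (250 before to 50 after the annotated start, GRCh38.p14) share 226 bases. The window of COL4A2, chr13:110307034-110307333, is printed on its plus strand because most of it lies in the windows of both genes. Capitals mark a CCAAT box and a GC box (GGGCGG).
COL4A2: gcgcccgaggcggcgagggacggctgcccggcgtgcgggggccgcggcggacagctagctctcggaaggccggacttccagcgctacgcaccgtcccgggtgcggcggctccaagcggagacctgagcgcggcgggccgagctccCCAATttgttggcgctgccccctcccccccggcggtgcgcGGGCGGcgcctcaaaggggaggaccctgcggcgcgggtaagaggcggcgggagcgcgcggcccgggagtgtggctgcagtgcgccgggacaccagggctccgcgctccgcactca
Of this window 77.7% is G or C. COL6A1 and COL6A2, which also encode chains of 1 protein, lie on the same strand of chromosome 21, 93063 bases apart. COL6A1 stood at 8.81 FPKM and COL6A2 at 0.660 FPKM in siNC, a ratio of 11.5 to 14.8 in the siNC libraries and 11.6 to 22.1 in the siSOWAHA libraries.

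**Figure D3:**
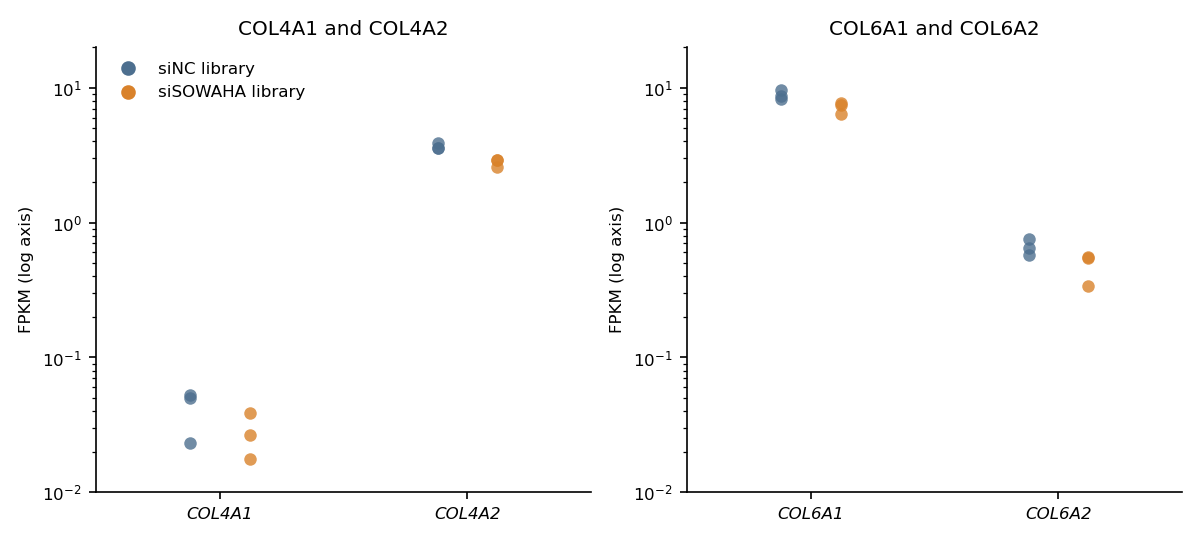
FPKM (log axis) of the collagen IV chains COL4A1 and COL4A2 and the collagen VI chains COL6A1 and COL6A2; each point is 1 library. COL4A2 lies near 3.68 FPKM and COL4A1 near 0.042 FPKM in siNC, and COL6A1 near 8.81 and COL6A2 near 0.660 FPKM.

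The lysyl oxidases, which crosslink collagen and elastin, held the gene with the largest change. LOXL1 (Entrez gene 4016, chr15:73926462-73952137, plus strand) measured 9.15, 9.07 and 7.77 CPM in siNC and 4.34, 4.75 and 4.93 CPM in siSOWAHA. The highest siSOWAHA library lay well below the lowest siNC library, a decrease of 46.0% (log2 fold change -0.89, SE 0.13, adjusted p = 0.000279). LOX measured 4.02, 3.58 and 3.65 CPM in siNC and 3.22, 2.19 and 2.06 CPM in siSOWAHA, without overlap but not called (-0.59, SE 0.20, adjusted p = 0.0614). LOX was called with the filter of 1 CPM in 3 libraries (adjusted p = 0.0463), with DESeq2 (0.0481), without siSOWAHA replicate 1 (0.0172) and with offsets per GC content (0.0498). LOXL2 was not called (-0.25, adjusted p = 0.538), with 4.64 CPM in siSOWAHA replicate 1 above every siNC library and 2.78 and 2.40 CPM in the others. LOXL1 shares 9.2% of its exon bases with the antisense gene LOXL1-AS1, which had 885 counts against 2226 for LOXL1, so reads of the pair may not be told apart. The RefSeq window at the LOXL1 start, chr15:73926212-73926511 on the plus strand of GRCh38.p14, is shown because LOXL1 fell most.
LOXL1: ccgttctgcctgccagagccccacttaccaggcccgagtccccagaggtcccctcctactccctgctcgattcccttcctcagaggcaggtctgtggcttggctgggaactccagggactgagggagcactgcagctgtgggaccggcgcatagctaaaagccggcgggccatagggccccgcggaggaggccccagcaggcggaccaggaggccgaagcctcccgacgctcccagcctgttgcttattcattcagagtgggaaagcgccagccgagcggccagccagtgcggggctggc
It has no capitals, since none of the 4 motifs searched on both strands (the AP-1 motif TGACTCA, the E-box CACCTG, the GC box GGGCGG and the box CCAAT) was found in these letters.

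**Figure D4:**
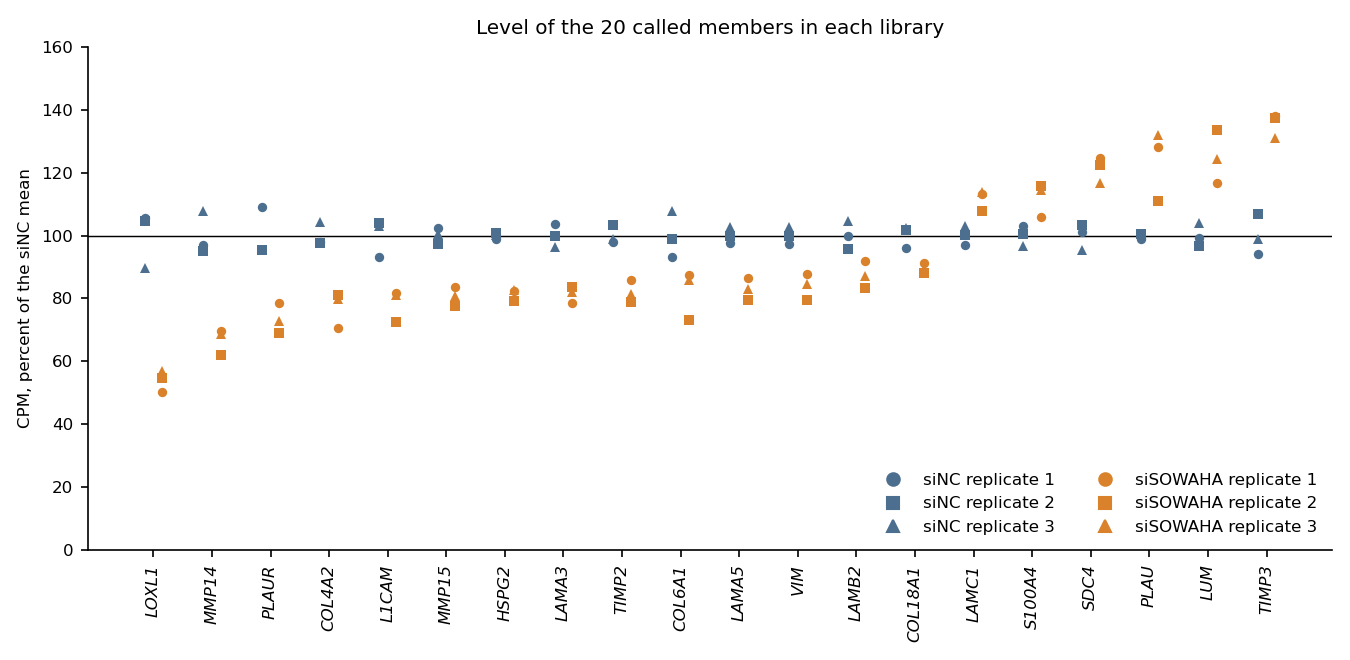
CPM of the 20 called genes in each library as a percent of the gene's siNC mean; colours are the groups and symbols the replicates, which have no order. LOXL1, MMP14 and PLAUR lie farthest below 100, and TIMP3, LUM and PLAU farthest above. The groups do not overlap in any of the 20, which were picked by a test on the same libraries, beside 33.0% of all genes tested.

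Laminins are heterotrimers of an alpha, a beta and a gamma chain, and the chains did not move together. LAMA5, the alpha chain of laminin-511 in most adult basement membranes, measured 168, 172 and 177 CPM in siNC and 149, 137 and 143 CPM in siSOWAHA (log2 fold change -0.27, SE 0.04, adjusted p = 0.000202). LAMA3, the alpha chain of laminin-332, measured 47.5, 45.9 and 44.3 CPM in siNC and 36.1, 38.3 and 37.7 CPM in siSOWAHA (-0.30, SE 0.05, adjusted p = 0.00125). LAMB2 measured 45.4, 43.5 and 47.5 CPM in siNC and 41.8, 37.9 and 39.6 CPM in siSOWAHA (-0.19, SE 0.06, adjusted p = 0.0292). All 3 were lower in every siSOWAHA library than in any siNC library. LAMB2 was not called without siNC replicate 1 (adjusted p = 0.0815) or 3 (0.131) and without siSOWAHA replicate 2 (0.121) or 3 (0.0922).

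The gamma chain LAMC1, the partner of LAMA5 in laminin-511, was higher. It measured 92.9, 96.0 and 98.7 CPM in siNC and 108.5, 103.5 and 109 CPM in siSOWAHA (log2 fold change 0.16, SE 0.04, adjusted p = 0.0159). It was not called without siNC replicate 1 (adjusted p = 0.0748) or siSOWAHA replicate 3 (0.0721), and LAMC1 did not pass the test on FPKM. LAMB1, the beta chain of the same trimer, measured 115.5, 106 and 111 CPM in siNC and 115, 105 and 105 CPM in siSOWAHA (-0.03, adjusted p = 0.698). LAMB3, the beta chain of laminin-332, measured 69.1, 66.2 and 70.0 CPM in siNC and 73.6, 61.7 and 67.3 CPM in siSOWAHA (-0.02, adjusted p = 0.878). Both had overlapping groups. The FPKM ratio of LAMB1 to LAMA5, chosen after the values were seen, was 1.08 to 1.20 in the siNC libraries and 1.28 to 1.35 in the siSOWAHA libraries.

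The RefSeq promoter table holds 1 window for LAMA3, at an internal start (chr18:23872770-23873069, plus strand, GRCh38.p14) and not at the gene's first start. It is printed because LAMA3 was 1 of the 2 lower genes, with PLAUR, whose window holds the AP-1 motif TGACTCA. Capitals mark, from the left, a GC box on the other strand, an AP-1 motif at -125 from the start, and an E-box (CACCTG) at -73 that overlaps a second AP-1 motif, on the other strand, at -69.
LAMA3: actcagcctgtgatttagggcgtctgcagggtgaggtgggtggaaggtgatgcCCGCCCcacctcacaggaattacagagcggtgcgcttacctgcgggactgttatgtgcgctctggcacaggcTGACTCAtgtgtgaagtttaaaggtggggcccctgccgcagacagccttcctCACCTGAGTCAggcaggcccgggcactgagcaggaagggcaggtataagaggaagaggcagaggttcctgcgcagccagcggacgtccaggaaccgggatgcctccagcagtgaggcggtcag
RefSeq windows were at hand for 36 of the 48 genes and for 13233 tested genes, with the outermost start used where a gene had several. TGACTCA on either strand was in 3.48% of the 13233 windows, in 2 of 12 lower genes, in 0 of 5 higher genes and in 1 of 15 genes not called, MMP7. The E-box CACCTG, which ZEB and SNAI factors can bind, was in 19.7% of all windows, in 3 of 12 lower genes, in 1 of 5 higher genes and in 3 of 15 not called. The GC box GGGCGG was in 65.5% of all windows and the CCAAT box in 35.9%, beside 10 and 3 of the 12 lower genes and 3 and 2 of the 5 higher genes. A match says only that the letters are there.

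Of the 6 proteoglycans, HSPG2 was lower, SDC4 and LUM were higher, and AGRN, SDC1 and BGN were not called. HSPG2 encodes perlecan, the heparan sulfate proteoglycan of basement membranes. It measured 158, 161 and 160.5 CPM in siNC and 132, 126.5 and 132 CPM in siSOWAHA. This was the smallest adjusted p among the 48 genes, with a decrease of 18.7% (log2 fold change -0.30, SE 0.04, adjusted p = 3.13e-05). AGRN, agrin, the other abundant basement membrane proteoglycan, measured 183, 188 and 187 CPM in siNC and 183, 166 and 168 CPM in siSOWAHA (-0.11, SE 0.04, adjusted p = 0.0742). AGRN was called with upper-quartile factors (adjusted p = 0.046), library totals alone (0.0487), the filter of 1 CPM in 3 libraries (0.0429), DESeq2 (0.0343) and without siSOWAHA replicate 1 (0.00876). HSPG2 shares 11.7% of its exon bases with LDLRAD2 on the opposite strand, which had 210 counts in all against 48057.

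SDC4, a transmembrane heparan sulfate proteoglycan of focal adhesions, measured 84.7, 86.5 and 79.9 CPM in siNC and 104, 102 and 97.8 CPM in siSOWAHA, an increase of 21.3% (log2 fold change 0.28, SE 0.04, adjusted p = 0.000499). SDC1, the main syndecan of epithelial cells, measured 159.6, 154 and 159 CPM in siNC and 164.5, 166 and 168 CPM in siSOWAHA. Its groups did not overlap, but it did not pass the test (0.08, adjusted p = 0.149). LUM encodes lumican, a small leucine-rich proteoglycan that regulates collagen fibrils and is known from stromal fibroblasts. It measured 60.7, 59.2 and 63.5 CPM in siNC and 71.4, 81.7 and 76.1 CPM in siSOWAHA, an increase of 25.0% without overlap (0.32, SE 0.05, adjusted p = 0.00051). BGN, biglycan, of the same family, had 6 to 24 counts and was not called (-0.29, SE 0.63, adjusted p = 0.834).

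None of the 3 tested matrix glycoproteins was called. TNC, tenascin-C, an anti-adhesive protein of tumour and wound matrix, measured 276, 258.5 and 284 CPM in siNC and 273, 241 and 258 CPM in siSOWAHA (log2 fold change -0.08, adjusted p = 0.238). FN1, fibronectin, measured 30.9, 28.5 and 26.9 CPM in siNC and 38.6, 28.8 and 28.97 CPM in siSOWAHA, so its difference rested on siSOWAHA replicate 1 (0.16, adjusted p = 0.357). THBS1, thrombospondin-1, measured 67.7, 62.1 and 68.4 CPM in siNC and 77.6, 67.9 and 70.1 CPM in siSOWAHA (0.12, adjusted p = 0.159). The groups of all 3 overlapped. SPARC, osteonectin, had 4 counts in each of 5 libraries and 31 in siSOWAHA replicate 2.

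Fibroblasts express several of these genes, so marker genes of other cell types were summed. The 9 fibroblast markers together reached 0.846 to 1.20 FPKM in the siNC libraries and 0.749 to 0.805 FPKM in the siSOWAHA libraries, none of the 4 tested was called, and PDPN was at 0 in all libraries. LUM alone stood at 21.3 FPKM in siNC. The 5 endothelial markers summed to 0.194 to 0.310 and 0.178 to 0.320 FPKM. The 6 leukocyte markers summed to 7.85 to 8.58 and 6.90 to 8.04 FPKM. LYZ stood at 4.61, CD68 at 2.84 and CD14 at 0.722 FPKM in siNC, whereas PTPRC and CD3E were at 0. The 10 colorectal epithelial markers summed to 4609 to 4748 FPKM in siNC and 4269 to 4287 FPKM in siSOWAHA, most of it keratin RNA, and 5 of the 10 were lower: KRT8, KRT19, CDX2, CDH17 and CDH1. EPCAM stood at 239.6 FPKM in siNC, whereas KRT20 and LGALS4, of differentiated colon epithelium, stood at 0.160 and 0.125 FPKM. EPCAM, KRT18, VIL1, KRT20 and LGALS4 were not called. Of the mesenchymal markers VIM was lower and S100A4 higher in the same libraries, and the part of the epithelial decrease in the other values was not tested. In bulk RNA, fewer cells making a gene and less RNA of it per cell cannot be told apart.

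The called genes differed in base composition. By GENCODE transcripts the 14 lower genes had a median GC content of 61.2% (46.9% to 67.6%) and the 6 higher genes of 48.8% (36.3% to 54.0%), beside 57.4% for those not called and 49.6% for all tested genes with a transcript. Of the 14 lower genes 10 lay in the top 2 deciles of GC content, beside 8 of the 20 not called and 0 of the 6 higher. Over genes of at least 10 CPM the median log2 fold change moved with GC content too, from 0.06 in the lowest decile to -0.03 in the highest. Less the median of its decile, COL18A1 stood at -0.13, LAMC1 at 0.15, MMP14 at -0.57 and LOXL1 at -0.86. With 1 offset per library and GC bin, a setting added after the data were seen, 21 of the 40 were called, 15 lower and 6 higher, the same 20 and LOX, and the median of the 40 was -0.14.

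**Figure D5:**
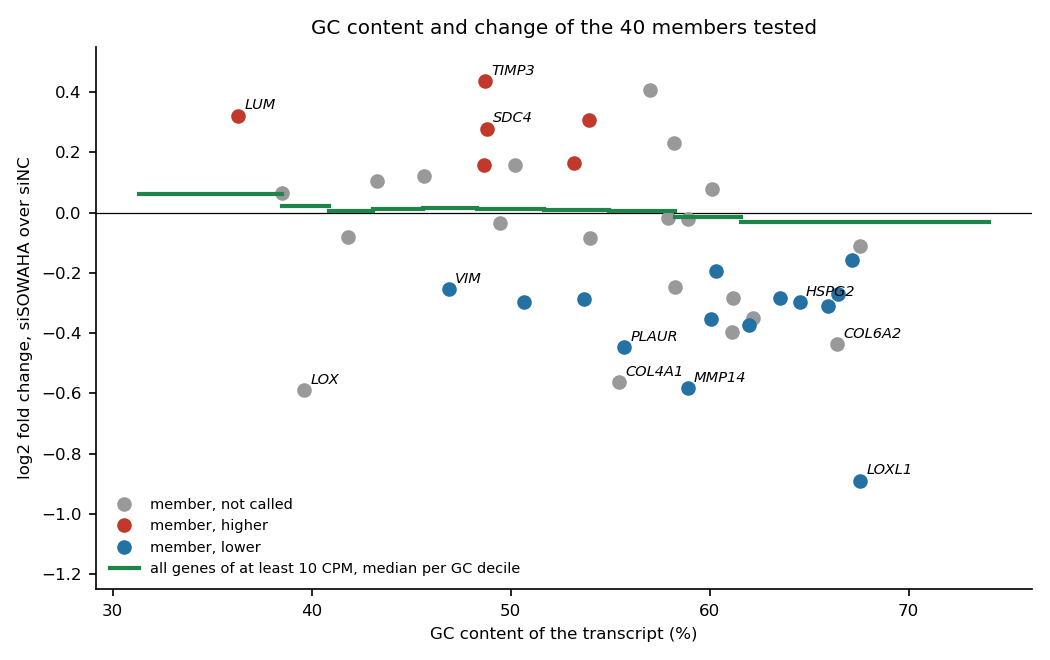
Log2 fold change of the 40 tested genes against the GC content of their transcript (percent); green lines are the median log2 fold change of all genes of at least 10 CPM in each decile of GC content. The green lines run from 0.06 to -0.03.

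In an earlier look at these data, genes with the 7-base runs AGATTTC or GATTTCA in the 3′ UTR were more often lower in siSOWAHA, so the 48 genes were searched for them. In the longest annotated 3′ UTR (GENCODE 29) of genes of at least 2 CPM, 33.8% of 1247 lower genes, 25.5% of 1528 higher genes and 25.1% of 8904 genes not called held a match. For the tested genes among the 48 no limit on CPM was set. Of the 14 lower genes 3 held a match (MMP14, TIMP2 and COL4A2), as did 1 of the 6 higher genes (LUM). Of the 20 not called 4 held a match (ZEB1, LOX, FN1 and THBS1). The matches of the called genes are printed with at most 30 bases, as DNA on the gene's strand, with the match in capitals. They lie at chr14:22847511-22847540, plus strand, for MMP14, at chr17:78853890-78853919, minus strand, for TIMP2, at chr13:110360507-110360536, plus strand, for COL4A2, and at chr12:91103336-91103365, minus strand, for LUM. The COL4A2 match is in the 3′ UTR of a shorter annotated transcript that ends inside the gene.
MMP14: gcagttcggctAGATTTCtgtcttgtttgt
TIMP2: accagtccatgtGATTTCAgtatatacaac
COL4A2: ccaagactctgtGATTTCAcgaattcacag
LUM: aataggtacttAGATTTCAcaacttactta
LUM, which carries 8 matching bases, was higher in siSOWAHA, and LOXL1, HSPG2, LAMA5 and VIM were lower with no match in the UTR searched.

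Genes of the same pathways outside the 48 were taken from 7 lists of 131 genes. Of these, 88 were tested, and 12 were higher and 17 lower, 33.0% beside 16.9% of all genes, with a median log2 fold change of -0.07. Among 16 tested metalloproteinases and regulators of them, 3 were higher and 2 lower. The membrane-type enzymes MMP17 (log2 fold change -0.21, adjusted p = 0.0547), MMP24 (-0.23, adjusted p = 0.601) and MMP25 (-0.27, adjusted p = 0.753) were not called. The groups of MMP17 did not overlap, and MMP17 passed the limma test on FPKM (adjusted p = 0.0345). ADAM15, a disintegrin and metalloproteinase of the cell surface, measured 65.8, 64.6 and 67.9 CPM in siNC and 107, 111 and 103 CPM in siSOWAHA (log2 fold change 0.69, SE 0.04, adjusted p = 6.53e-08). ADAM19 went the other way, with 42.6, 43.7 and 44.0 CPM in siNC and 28.96, 24.9 and 29.1 CPM in siSOWAHA (-0.65, adjusted p = 7.31e-06). The groups of both stood clearly apart. ADAM10 (0.19, adjusted p = 0.0111) and ADAM17 (0.22, adjusted p = 0.023), the main sheddases of cell surface proteins, were higher; the ADAM10 call was lost without siNC replicate 3 (0.0521), siSOWAHA replicate 2 (0.0557) or 3 (0.0777), and the ADAM17 call without each library except siSOWAHA replicate 1 (0.0624 to 0.121).

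In the plasminogen system, 3 of 10 tested genes were lower and none higher. S100A10 and ANXA2 form a complex that binds plasminogen at the cell surface. S100A10 measured 118, 126 and 121 CPM in siNC and 92.5, 98.2 and 89.9 CPM in siSOWAHA (log2 fold change -0.38, SE 0.04, adjusted p = 2.28e-05). ANXA2 fell too (-0.19, adjusted p = 0.000715), though processed pseudogene copies make its count uncertain. With PLAUR, the receptor, the plasminogen-binding pair was thus lower where PLAU was higher.

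The other collagens went both ways: of 10 tested, 3 were higher and 2 lower. COL8A1 measured 4.99, 5.38 and 5.38 CPM in siNC and 8.83, 9.85 and 11.8 CPM in siSOWAHA (log2 fold change 0.95, SE 0.13, adjusted p = 0.000152). COL2A1 was higher as well (0.37, adjusted p = 0.00348), whereas COL16A1 (-0.64, adjusted p = 0.00214) and COL7A1, of anchoring fibrils, were lower (-0.36, adjusted p = 0.00894). COL7A1 was not called without siNC replicate 3 (adjusted p = 0.0533). Of 13 genes for collagen folding and crosslinking, 2 were higher and 3 lower. The lysyl oxidase LOXL4 fell, like LOXL1, from 9.25, 9.57 and 9.82 CPM to 5.16, 4.53 and 6.65 CPM (-0.81, SE 0.14, adjusted p = 0.00112). P4HB, a subunit of collagen prolyl hydroxylase and a protein disulfide isomerase, rose (0.20, adjusted p = 0.000294), while the collagen chaperone SERPINH1 (-0.20, adjusted p = 0.00139) and CRTAP, of the prolyl 3-hydroxylase complex (-0.26, adjusted p = 0.00211), fell.

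Of 9 further laminin and basement membrane genes tested, 2 were called. FRAS1, a protein of the epidermal basement membrane, was lower at the edge of the threshold (log2 fold change -0.13, adjusted p = 0.049), and the call was lost with RLE factors (0.0501), under the replicate block (0.0665) and without each library except siNC replicate 1 (0.0829 to 0.201).

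Among 16 further proteoglycans and glycoproteins, 1 was higher and 2 lower. TGFBI, a matrix adhesion protein induced by TGF-beta, fell from 218, 222 and 212.5 CPM to 147, 136 and 141 CPM (log2 fold change -0.62, SE 0.04, adjusted p = 2.71e-08). FMOD, fibromodulin, a small leucine-rich proteoglycan like LUM, was higher (0.49, adjusted p = 0.00265), and SDC3 was lower (-0.24, adjusted p = 0.00286). Of 14 further EMT genes, 2 were higher and 4 lower. ID1 and ID2, inhibitors of basic helix-loop-helix factors and targets of BMP signalling, both fell (-0.51 each, adjusted p = 8.87e-06 and 0.000295). Their dimerization partner TCF3 rose (0.21, adjusted p = 0.000721), and S100A11 fell (-0.30, adjusted p = 0.000683). CDH1 fell slightly, from 103.5, 105 and 112 CPM to 98.4, 95.9 and 97.9 CPM (-0.13, SE 0.04, adjusted p = 0.0408). The CDH1 call was lost under the replicate block (adjusted p = 0.0548) and without each library except siNC replicate 1 (0.0566 to 0.193).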

How the data were processed

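The data are RNA-seq of 6 SW620 libraries, 3 siNC and 3 siSOWAHA, grouped by their titles. The tools named per the submitters' processing notes are cutadapt 1.9 and FastQC, with GRCh38 as genome build. Which aligner and counter ran, with what strand setting and gene models, is not given in the sources used here. A count table, unnormalized, with 39554 Entrez IDs was deposited, and the authors' second table adds FPKM for 24901 of them to the same counts. Replicates differed by more than sampling noise (chi-square per degree of freedom 8.09 to 14.8) and were kept apart.

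Counts were tested on the whole table with edgeR 4.0.16 (R 4.3.3), using TMM scaling after filterByExpr and the two-sided quasi-likelihood F test with robust dispersions, with Benjamini-Hochberg adjustment over 17693 genes, threshold 0.05. The SE is the fold change over the square root of F. CPM use TMM factors. FPKM were tested as log2(FPKM + 1) with limma 3.58.1 (trend), for genes of at least 1 FPKM in at least 3 libraries. An exact permutation test of 3 against 3 libraries cannot go below p = 0.1. The steps were tested on simulated data.

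The 48 genes, the other lists and the 3′ UTR runs were chosen with earlier results of these data known. Values per library are given for called genes and for genes of at least 10 FPKM in siNC; from other lists up to 4 called genes with the smallest adjusted p are named, and some genes that met this rule are left out here. COL1A1, LOX, SNAI1, ZEB1, FN1 and THBS1 are given per library, and CDH1 is named, outside that rule, chosen after their values were seen. MMP17, MMP24 and MMP25 are also named outside that rule, as further membrane-type enzymes. Alternatives were RLE, upper-quartile or total-count scaling, other filters, DESeq2 1.42.0, limma-voom, a replicate block, each library left out, a threshold of 0.01 and, added after the data were seen, GC-bin offsets. Transcripts, UTRs and exon overlaps are from GENCODE 29 and promoter windows from RefSeq (GRCh38.p14). MMP11 and TWIST2 carry alternate-scaffold copies, so their coordinates are not printed.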

Additional observations from a re-analysis of the deposited data

How the results depend on the processing

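None of the called genes named here reversed direction under any alternative. Genes that were not called were not followed for a change of sign alone. Of the 20 called genes, 14 were called in all 15 alternatives other than the stricter threshold; the 6 others (S100A4, PLAU, PLAUR, COL6A1, LAMB2 and LAMC1) lost the call when single libraries were left out, PLAU also under the replicate block. At the threshold of 0.05 the number of called genes among the 48 was 15 to 23, with 23 under DESeq2 or the filter of 1 CPM in 3 libraries and 20 under limma-voom. At a threshold of 0.01 it was 14. Leaving out a library gave 15 to 21 called genes among the 48 and 1978 to 2678 over all genes, with 1978 without siNC replicate 3. Over all genes a threshold of 0.01 gave 1556. The median log2 fold change of the tested genes moved from -0.18 to -0.11 with no filter, since 47 genes then entered, to -0.14 with GC-bin offsets, and to between -0.21 and -0.12 with a library left out. The other matrix and protease genes called numbered 21 to 28 with a library left out and 36 with the filter of 1 CPM in 3 libraries, against 29. In FPKM values 14 to 19 genes were called across alternatives.

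The replicate numbers did not pair the libraries: deviations of same-numbered libraries correlated by -0.19, 0.03 and 0.03 over 12843 genes. With the number as a replicate block, 19 of the 48 genes and 2599 genes in all were called. For the low genes TWIST2, BGN and COL4A1, with an SE of 0.48 to 0.87 on the log2 scale, a change of the size seen in the called genes was not detectable at this depth.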
